A study of Mus musculus with 17 samples.

Results

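The rows described here are entries of a deposited mouse RNA count table whose names consist of enh and a number, with no gene identifier in front. The table held 6306 such rows among 96004, and 2322 of them reached at least 10 counts in at least 3 of the 17 columns. These 2322 enhancer rows are the subject of the text. Another 42055 rows carried an Ensembl gene identifier before enh, and 47643 were plain gene rows. Under the same count rule 18928 of the former and 19337 of the latter were kept, so that 40587 rows entered every fit. How the enhancer rows were defined is not recorded in the labels, nor are their lengths or positions, so "enhancer" is the table's own word and no sequence can be shown.

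Enhancers are stretches of DNA that bind transcription factors and raise the transcription of genes that can lie far away. Active enhancers are themselves transcribed, usually into short, unstable enhancer RNAs that the nuclear exosome degrades and of which only a part is polyadenylated. In blood progenitors PU.1, the product of Spi1, is a master factor of myeloid and B cell enhancers. Its own gene depends on an upstream regulatory element (URE), and loss of URE copies lowers PU.1. Tet2 oxidises methylated cytosine, much of it at enhancers, and is among the genes most often mutated in clonal haematopoiesis and in acute myeloid leukaemia (AML).

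The study measured RNA in bone marrow cells that were cKit+ Lymph- Ery- and purified by flow cytometry, which enriches haematopoietic stem and progenitor cells. The 4 groups with the disease state Normal were wild type (WT, URE+/+;Tet2+/+, 3 libraries), URE het (UREΔ/+;Tet2+/+, 3), Tet2 het (URE+/+;Tet2+/-, 3) and Tet2 KO (URE+/+;Tet2-/-, 3). The groups with the state AML were the compound mutants URE het Tet2 het (UREΔ/+;Tet2+/-, 2) and URE het Tet2 KO (UREΔ/+;Tet2-/-, 3), named compound het and compound KO here. Every compound mutant was AML and every other library Normal, so leukaemia and compound genotype cannot be told apart. The labels name no age, sex or strain and no deleted exons of Tet2. Nothing in the labels says that libraries came from separate mice, so p-values measure the spread between these libraries, which may be technical. In bulk RNA, fewer cells of a type and less RNA per cell cannot be told apart.

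Gene rows held 21.1 to 38.3 M counts per library. Kit, the sorting marker, stood between 100 and 187 CPM in all 17, where CPM are counts scaled to the counts on gene rows. Summed markers of mature myeloid cells (6 genes, 3 of them called lower) ran from 18790 to 71779 CPM in Normal and from 8292 to 18931 CPM in AML. Summed B cell markers (6 genes, 1 called lower) ran from 120 to 631 CPM in Normal and from 18.3 to 271 CPM in AML, and none of either list was at 0 in all AML libraries. T and NK markers were 59.8 to 152 against 18.8 to 92.7 CPM, erythroid markers 74.8 to 207 against 62.4 to 159 CPM, stromal markers 35.6 to 58.1 against 18.9 to 135 CPM, and progenitor markers 3177 to 8791 against 6413 to 9804 CPM. The libraries carried running numbers in their titles. Among the 12 Normal libraries those numbered 1 to 7 and 8 to 17 differed in 25.2% of all rows and in 20.3% of the enhancer rows (359 higher and 113 lower in the later range, edgeR quasi-likelihood test, Benjamini-Hochberg adjusted p under 0.05). Each range holds AML and Normal libraries, and the labels do not call the ranges batches.

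Most of the enhancer rows were scarce. Their mean level over the 17 libraries ranged from 0.0800 to 44.9 CPM with a median of 0.956 CPM, next to 1.00 CPM for the enhancer rows with a gene identifier and 5.36 CPM for gene rows. These are levels per row, not per length, because row lengths were not given. A mean of 1 CPM or more was reached by 1136 rows and 10 CPM by 37. The upper 10% of rows held 41.6% of the summed level. At least 1 count in every library was seen for 1809 rows, and at least 10 counts in every library for 959. The median count of a row ran from 17 to 55 per library, so that many single rows were measured with few reads. At the edge of the count rule, 126 rows reached 10 counts in exactly 3 columns (median level 0.172 CPM) and 150 rows in exactly 2 (median level 0.136 CPM).

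The rows came in the order of the genome, which gave each of them a neighbourhood. Of 47202 successive pairs of gene rows on 1 chromosome, 99.68% were in the order of the GENCODE vM21 annotation of GRCm38. For 2321 of the 2322 rows the gene rows before and after lay on the same chromosome. The stretch from the start of the gene row before to the start of the one after, called the bracket here, had a median of 67 kb. It lay inside the span of an annotated gene for 977 rows. The rows formed 1187 runs without a gene row between them, 703 of them single rows and the longest with 21. Neighbours are given below to place a row, and a bracket does not show which gene, if any, the row acts on. Where a bracket lies in or beside a gene, reads of unspliced RNA of that gene could be counted in the row, and the labels state no counting or strand rule.

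None of the 3 most counted rows passed the test in AML against Normal or in any other comparison. The row _enh.2064 lay on chromosome 6 in a bracket of 9.43 kb between Hnrnpa2b1, which encodes an RNA-binding protein, and Cbx3, which encodes a heterochromatin protein. It measured 28.1, 45.6 and 60.3 CPM as lowest, median and highest of the 12 Normal libraries, and 40.1 and 90.0 CPM in compound het and 33.1, 30.2 and 47.3 CPM in compound KO. The groups overlapped, and the log2 difference of AML minus Normal was 0.19 ± 0.20 (SE, edgeR adjusted p = 0.655). It became -0.18 without compound het replicate 2, the library at 90.0 CPM, and 0.61 (adjusted p = 0.0296) in the libraries with title numbers 8 to 17 alone. The row _enh.4123 on chromosome 12, before Alkbh1, averaged 34.9 ± 7.46 CPM in Normal (SD, n = 12) and 42.3 ± 15.3 CPM in AML (SD, n = 5). Its log2 difference of AML minus Normal was 0.19 ± 0.18 (SE, edgeR adjusted p = 0.617). Such differences are taken between means of genotype groups, each group with the same weight. They are therefore not the log2 ratio of averages over libraries. The row _enh.3853 on chromosome 11 lay inside Ddx5, which encodes an RNA helicase, and measured 15.9, 33.1 and 76.2 CPM as lowest, median and highest of Normal. It measured 41.3 and 78.8 CPM in compound het and 18.7, 13.9 and 27.3 CPM in compound KO. Both compound het libraries lay above all compound KO ones, a log2 difference of -1.59 ± 0.52 for compound KO minus compound het (SE, edgeR adjusted p = 0.319). Its AML minus Normal log2 difference of -0.07 ± 0.31 (SE, edgeR adjusted p = 0.936) had no stable sign, with -0.35 to 0.21 on leaving out single libraries.

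The summed level of the enhancer rows was highest in the groups with 1 Tet2 copy. It was 4000, 3425 and 4560 CPM in WT, 4162, 3136 and 5413 CPM in URE het, and 4799, 5903 and 4985 CPM in Tet2 het. In Tet2 KO it was 3126, 3525 and 4040 CPM. The compound mutants with 1 Tet2 copy stood at 5316 and 5182 CPM and those with none at 3500, 3178 and 3716 CPM. All 5 libraries with 1 Tet2 copy thus lay above all 6 libraries with none, while WT and URE het spread between them and URE het replicate 3 exceeded both compound libraries with 1 copy. The comparison was noticed in the values and was not tested. The enhancer rows with a gene identifier had the same order of group means, from 29467 CPM in compound KO to 43587 CPM in compound het. Malat1, a nuclear RNA, was highest in both compound het libraries (9759 and 5960 CPM) and ran from 2325 to 5144 CPM in all others. The share of gene counts on mitochondrial genes was 26.7% and 32.1% in those libraries and 26.4% to 44.5% over all 17. The part of either measure in the summed level was not tested.

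**Figure D1:**
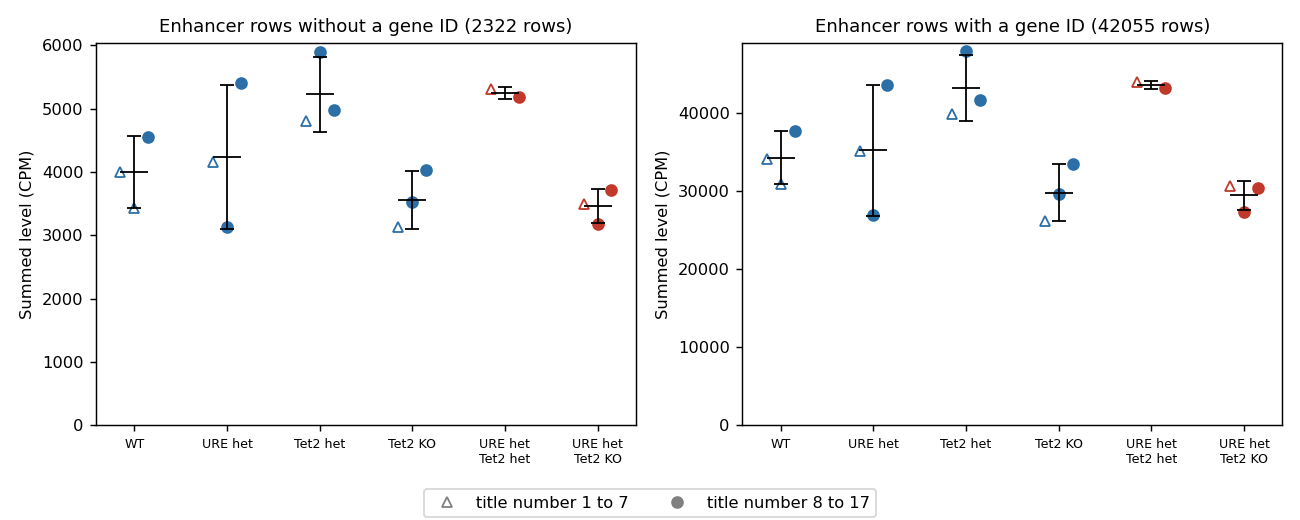
Summed level in CPM of the 2322 enhancer rows and of the enhancer rows with a gene identifier, by genotype, with the compound mutants under their full names, 1 symbol per library (open triangles, title numbers 1 to 7; filled circles, 8 to 17), a bar at the mean and whiskers of 1 SD. Tet2 het (4799 to 5903 CPM) and compound het (5182 and 5316 CPM) lie above Tet2 KO (3126 to 4040 CPM) and compound KO (3178 to 3716 CPM).

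Over all 2322 rows the AML libraries did not form 1 group. The first principal component of log2 CPM took 23.9% of the variance and set 3 AML libraries apart, compound het replicate 1 at -50.7 and compound KO replicates 2 and 3 at -57.3 and -50.3. Compound KO replicate 1 stood at -11.8 and compound het replicate 2 at 5.29, the latter within the Normal range of -2.50 to 23.4. The second component took 23.5% and was mostly lower for title numbers 1 to 7 (-45.7 to 3.48) than for 8 to 17 (-8.43 to 37.4). It also tended to rise with the number of enhancer rows at 10 or more counts in a library. That number was 1483 in the lowest library, Tet2 KO replicate 1, and 2090 in the highest, Tet2 het replicate 2. The part of each in this component was not tested.

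**Figure D2:**
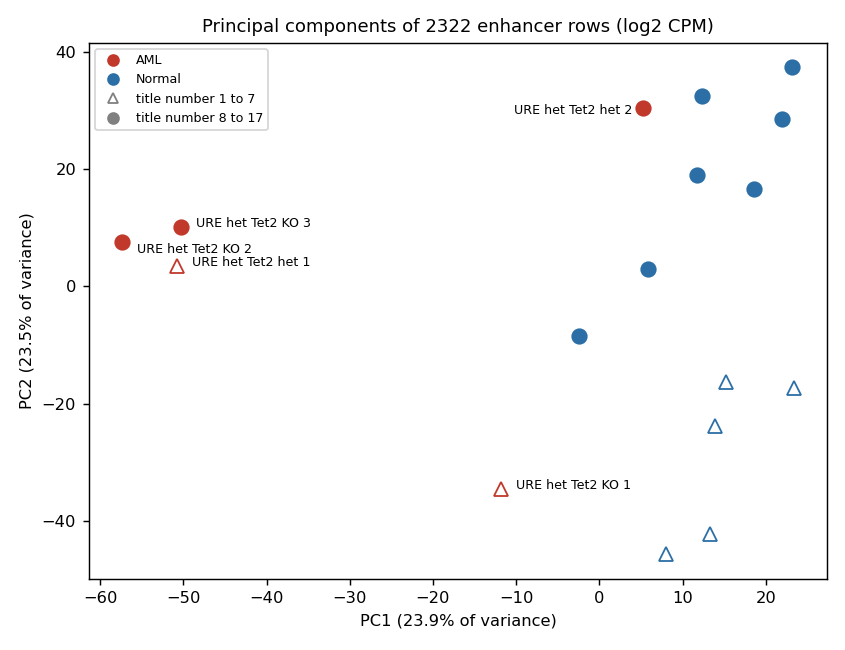
First and second principal component of the log2 CPM of the 2322 enhancer rows (arbitrary units, share of variance on each axis), 1 symbol per library, AML red and Normal blue, title numbers 1 to 7 as open triangles and 8 to 17 as filled circles. Of the 5 AML libraries 3 lie at or below -50.3 on the first component, and compound het replicate 2 lies at 5.29 among the Normal libraries.

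In AML against Normal 92 enhancer rows changed, 54 upward and 38 downward. That is 3.96% of them, where 6.59% of all rows were called, 4.36% upward and 2.23% downward (edgeR quasi-likelihood test, 6 group means, Benjamini-Hochberg over 40587 rows at 0.05). The share was 9.1% for gene rows and 4.36% for enhancer rows with a gene identifier, and the differences between these shares were not tested. The median log2 difference over the 2322 rows was -0.02, with 1134 above 0, against 0.05 over gene rows. Rises were mostly of scarce rows: 35 of the 54 averaged under 1 CPM, their median log2 change was 2.31, and it ranged from 0.86 to 8.08. Of the 54, 24 had 10 counts in fewer than 3 Normal libraries and so met the count rule only with the AML libraries. Of these, 16 had no Normal library with 10 counts, which made a difference of some size a condition of their being tested. Likewise 9 of the 38 that fell had no AML library with 10 counts. With a term for title range 182 rows were called, 94 upward and 88 downward, where 4854 of all 40587 rows were called. Falls had a median of -2.66 and ranged from -5.92 to -0.91, with 18 of 38 under 1 CPM.

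The rises rested mainly on the same 3 AML libraries that stood apart, and the falls less clearly so. Of the 54 rows that rose, 49 were above every Normal library in compound het replicate 1, 43 in compound KO replicate 2 and 44 in replicate 3. The counts were 17 in compound het replicate 2 and 15 in compound KO replicate 1. Of the 38 that fell, 25, 35 and 34 were below every Normal library in the former 3, and 20 and 21 in the latter pair. Leaving out compound KO replicate 2 or 3 gave 40 or 43 calls, of which 39 and 40 were also called with all libraries. Without Tet2 KO replicate 2 there were 60, and without compound KO replicate 1 there were 197. Compound het weighs as much as compound KO in this comparison. Leaving out either compound het library puts that weight on the other alone and takes its spread from the other groups. Those omissions are thus not like the rest. Several rows named below lost their call without compound het replicate 1. Within title numbers 8 to 17 alone, with 3 AML libraries, 193 rows were called, 55 upward and 138 downward, and the other range holds 1 library of each compound group and was not fitted alone. DESeq2 called 191 (79 upward, 112 downward), and limma voom with quality weights 83 (36 upward, 47 downward), so that the balance of rises and falls depended on the tool. Over all 40587 rows DESeq2 called 4671 and limma voom 2549, where edgeR called 2676.

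Among rows that averaged 1 CPM or more on the log scale, _enh.1795 on chromosome 5 fell furthest. It lay in a bracket of 9.75 kb between 2310034O05Rik and Gm8091 (chromosome 5, 100210692 to 100355119, GRCm38). WT libraries measured 16.2, 19 and 7.50 CPM, URE het 20.1, 4.67 and 2.39 CPM, Tet2 het 5.61, 1.83 and 1.17 CPM, and Tet2 KO 0.496, 0.232 and 0.0881 CPM. The AML libraries measured 0.00 and 0.637 CPM in compound het and 0.0848, 0.00 and 0.00 CPM in compound KO. Every library with an altered Tet2 gene lay below all 3 WT libraries, and the levels of Tet2 KO overlapped those of AML. AML minus Normal was -5.05 ± 0.92 on the log2 scale (SE, edgeR adjusted p = 0.00449). In every Normal genotype the library or libraries numbered 1 to 7 were the highest. The next enhancer row, _enh.1796, after Gm8091, fell by 4.60 ± 0.76 (SE, edgeR adjusted p = 0.00218), with all 5 AML libraries below all Normal ones. Gm8091 itself changed by -4.32 (edgeR adjusted p = 0.00907).

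The row _enh.2170 on chromosome 6, between 4933431G14Rik and Gm38832 (72120213 to 72167707, GRCm38), was lower in all 5 compound mutant libraries. Normal libraries measured 1.35, 2.24 and 3.84 CPM as lowest, median and highest. Compound het measured 0.00 and 0.382 CPM and compound KO 0.679, 0.00 and 0.0302 CPM, so that the groups did not overlap. The log2 change was -3.53 ± 0.73 (SE, edgeR adjusted p = 0.00855), and -3.09 (adjusted p = 0.0541) without compound het replicate 1. The gene row before it, 4933431G14Rik, changed by -3.18 (edgeR adjusted p = 0.0266).

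Rises with the same minimum level were led by _enh.4744 and _enh.6057. The row _enh.4744 on chromosome 14 lay between Extl3, which encodes a heparan sulphate glycosyltransferase, and Fzd3, which encodes a Wnt receptor. Normal libraries measured 0.132, 0.741 and 1.96 CPM as lowest, median and highest, and AML libraries 9.21 and 0.531 CPM in compound het and 0.212, 7.96 and 2.18 CPM in compound KO. Only 3 of 5 AML libraries exceeded the Normal range. The log2 change of 2.53 ± 0.58 (SE, edgeR adjusted p = 0.015) was 0.94 (adjusted p = 0.477) without compound het replicate 1, 1.75 (adjusted p = 0.0948) without compound KO replicate 2 and 1.66 (adjusted p = 0.144) by limma voom. The row _enh.6057 on chromosome 19 lay between Mir1192 and Smc5, a gene for a structural maintenance of chromosomes protein. Normal libraries measured 0.596, 1.27 and 2.97 CPM as lowest, median and highest, and AML libraries 6.14 and 3.82 CPM in compound het and 1.61, 8.68 and 4.68 CPM in compound KO. Compound KO replicate 1 lay within the Normal range and the other 4 above it. The log2 change was 1.95 ± 0.37 (SE, edgeR adjusted p = 0.00508) and kept its call in all 17 omissions of a library (adjusted p up to 0.0438). The Mir1192 row rose by 2.05 (edgeR adjusted p = 0.00204) and Smc5 differed by 0.04 (adjusted p = 0.9).

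**Figure D3:**
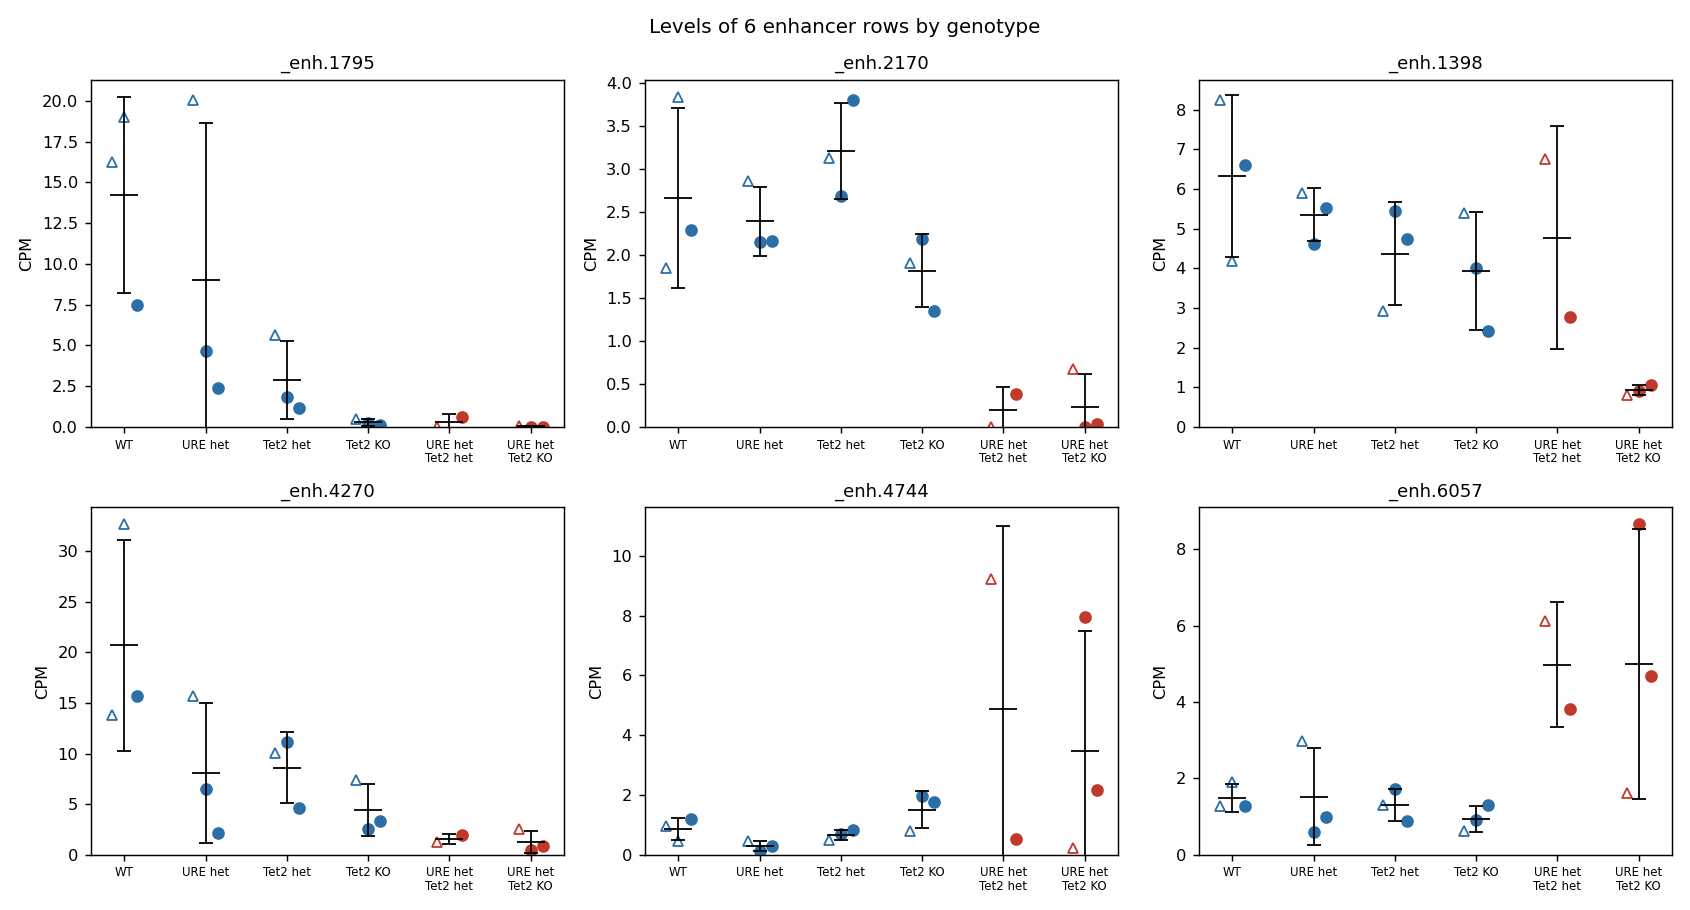
Level in CPM of 6 enhancer rows by genotype, 1 symbol per library (open triangles, title numbers 1 to 7; filled circles, 8 to 17; AML red, Normal blue), with a bar at the mean and whiskers of 1 SD that are cut at 0. The row _enh.1795 is near 0 in Tet2 KO (0.0881 to 0.496 CPM) and in AML (at most 0.637 CPM), and _enh.1398 is lowest in compound KO (0.806 to 1.06 CPM).

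Groups that did not overlap were rare. Only 2 enhancer rows had all 5 AML libraries above all 12 Normal ones and 9 had all below, 11 in all or 0.474%, where 0.961% of all rows had either pattern (0.552% above, 0.409% below). Of these, 1 was called higher and 8 lower (0.495% and 0.367% of all rows). Those named here were chosen because of their values. The only riser, _enh.5516 on chromosome 17 between Fance, a gene of the Fanconi anaemia repair pathway, and Rpl10a, a ribosomal protein gene, measured 0.154 to 0.611 CPM in Normal and 0.695 to 1.70 CPM in AML. Its log2 change was 1.5 ± 0.33 (SE, edgeR adjusted p = 0.0114), and 1.11 (adjusted p = 0.0611) without compound het replicate 2.

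The fallers without overlap included _enh.1796, _enh.2170 and _enh.4266, described with their neighbourhoods, and 4 others. The row _enh.568 on chromosome 2, after the pseudogene Mrpl23-ps1, averaged 1.04 ± 0.447 CPM in Normal (SD, n = 12) and 0.147 ± 0.128 CPM in AML (SD, n = 5). Its log2 change, taken between the genotype group means, was -2.72 (edgeR adjusted p = 0.00412), a call kept in all 17 omissions. The row _enh.320 lay inside Cop1, a ubiquitin ligase gene, and fell by 0.91 (edgeR adjusted p = 0.0229), beside -0.66 for Cop1 (adjusted p = 0.0219). Its adjusted p was 0.115 without compound het replicate 1 and 0.059 without compound KO replicate 3. The row _enh.2213, after Arhgap25, fell by 0.93 (edgeR adjusted p = 0.0398), a call lost in 13 of 17 omissions (adjusted p up to 0.212). The row _enh.2134, among the immunoglobulin kappa variable segments, was at 0 counts in 4 AML libraries and at 0.0302 CPM in compound KO replicate 3, against 0.0332 to 1.15 CPM in Normal. Its adjusted p in edgeR was 0.0202, 0.0997 without compound het replicate 1 and 0.0518 without compound KO replicate 2. The cells were sorted as Lymph-, summed B cell markers were 120 to 631 CPM in Normal and 18.3 to 271 CPM in AML with 1 of 6 genes called lower, and their part in this row was not tested.

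Of the 92 called rows, 33 shared a bracket with at least 1 other. The longest such run, chosen after its values were seen, held 5 rows on chromosome 13, _enh.4266 to _enh.4270, in a bracket of 549 kb between Gli3, a transcription factor of hedgehog signalling, and Inhba, which encodes an activin subunit. The most abundant of them, _enh.4270, measured 13.8, 32.7 and 15.7 CPM in WT, 15.7, 6.46 and 2.13 CPM in URE het, 10.1, 11.2 and 4.57 CPM in Tet2 het, and 7.37, 2.52 and 3.35 CPM in Tet2 KO. It measured 1.21 and 1.89 CPM in compound het and 2.50, 0.458 and 0.846 CPM in compound KO. Each mutant group reached below WT, and 4 of 5 AML libraries lay below all Normal ones. AML minus Normal was -2.68 ± 0.53 (SE, edgeR adjusted p = 0.00672). For _enh.4266, without overlap, it was -2.96 ± 0.44 (SE, edgeR adjusted p = 0.00114), a call kept in all 17 omissions. The values of _enh.4267, _enh.4268 and _enh.4269 were -2.14, -1.87 and -2.42 (edgeR adjusted p = 0.0346, 0.0229 and 0.0158). Without compound het replicate 1 the adjusted p of _enh.4268, _enh.4269 and _enh.4270 was 0.144, 0.129 and 0.0775, and _enh.4268 was also lost without compound KO replicate 2 (0.0527) or 3 (0.0598). The call of _enh.4267 was lost in 8 of 17 omissions (adjusted p up to 0.09). Neither neighbour gene row was called, with -3.18 for Gli3 (adjusted p = 0.161) and 0.10 for Inhba (adjusted p = 0.951).

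On chromosome 4 the 3 rows _enh.1398 to _enh.1400, in a bracket of 646 kb between Megf9 and Gm11227, were called lower in AML. For _enh.1398 only the compound KO libraries were low, at 0.806, 0.917 and 1.06 CPM, while compound het stood at 6.76 and 2.78 CPM, within the Normal range of 2.41 to 8.24 CPM. Compound het differed from Tet2 het by 0.12 ± 0.45 in this row (SE, edgeR adjusted p = 0.972). AML minus Normal was -1.22, -1.32 and -1.24 on the log2 scale (edgeR adjusted p = 0.0176, 0.0122 and 0.0209). The call of _enh.1398 held in all 17 omissions. That of _enh.1399 was lost without compound het replicate 1 (adjusted p = 0.0656), and that of _enh.1400 without either compound het library (0.0765 and 0.0564) and without compound KO replicate 2 (0.0527) or 3 (0.0533). On chromosome 17 the rows _enh.5714, _enh.5715 and _enh.5718, between Gm11096 and Rpl31-ps25, differed by -3.98, -3.05 and -3.0 (edgeR adjusted p = 0.042, 0.0348 and 0.0322). They were at 0 counts in 3 or 4 AML libraries and within the Normal range in compound het replicate 2, at 0.659, 0.574 and 0.892 CPM, and their calls were lost in 12, 9 and 6 of 17 omissions. Both runs were chosen after their values were seen.

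A run of 4 rows rose on chromosome 13, _enh.4577 to _enh.4580, between Mir1904 and Rab3c, by 1.13, 1.25, 1.24 and 1.41 on the log2 scale (edgeR adjusted p = 0.0462, 0.0163, 0.0391 and 0.032). This rise belonged mainly to 1 library. Compound het replicate 1 measured 4.77, 13.6, 11.8 and 9.57 CPM, and the next highest AML library 2.08, 3.38, 4.33 and 3.02 CPM, where the Normal maximum was 1.69, 3.43, 2.93 and 2.51 CPM. Without that library the 4 changes were 0.57, 0.59, 0.50 and 0.81 (adjusted p = 0.449, 0.32, 0.528 and 0.344).

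The most abundant rises lay inside Cdk6, the cyclin-dependent kinase gene of early G1 that is highly active in progenitors and many leukaemias. The row _enh.1612 on chromosome 5 measured 5.41, 9.41 and 16.6 CPM as lowest, median and highest of Normal, 56.3 and 15.1 CPM in compound het, and 5.56, 46.7 and 49.3 CPM in compound KO. The 3 AML libraries that stood apart were at 46.7 CPM or more, and the other pair lay within the Normal range. The log2 change was 1.79 ± 0.38 (SE, edgeR adjusted p = 0.0108), and 1.17 (adjusted p = 0.172) without compound het replicate 1. Its neighbour _enh.1613 rose by 1.5 ± 0.43 (SE, edgeR adjusted p = 0.0471), a call lost in 14 of 17 omissions (adjusted p up to 0.267). The Cdk6 gene row changed by 0.75 (edgeR adjusted p = 0.0378).

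The steepest rises were of rows almost without counts in Normal. The row _enh.5731 on chromosome 17, before Gm37549, measured 6.76 and 0.0425 CPM in compound het and 0.00, 2.06 and 2.27 CPM in compound KO, and at most 0.183 CPM in Normal. The row _enh.4997 on chromosome 15, after Fam83a, measured 0.914 and 0.00 CPM and 0.00, 5.47 and 5.17 CPM in the same order, and at most 0.0367 CPM in Normal. Both rows were again high in the 3 AML libraries that stood apart. The rows _enh.5731, _enh.4997, _enh.3218 and _enh.3219 reached 10 counts only in those 3 libraries, so they met the count rule through AML alone and their calls are not independent of that rule. The fitted log2 changes of _enh.5731 and _enh.4997 were 8.08 and 7.36, Fam83a rose by 7.01 (adjusted p = 0.000532) and Gm37549 by 3.95 (adjusted p = 0.00518). The row _enh.3218 on chromosome 9, after Gm38032, had 0 counts in all 12 Normal libraries, and its mean in AML was at least 108-fold higher than the level of 3 counts over the whole Normal group. Its partner _enh.3219 was at 0.0288 CPM in 1 Normal library and reached 4.24 CPM in AML. All 4 calls were lost without compound het replicate 1, with an edgeR adjusted p of 0.0834, 0.133, 0.187 and 1 for _enh.3218, _enh.3219, _enh.5731 and _enh.4997.

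Of 7 kept rows beside 9 genes of antigen presentation on major histocompatibility complex class I, a list made after the called rows were seen, 3 were called higher and 4 were not called, where 4.36% of all rows were called higher. The row _enh.2894 lay inside Nlrc5, the transactivator of class I genes, and measured 2.91 and 3.93 CPM in compound het and 0.679, 3.15 and 3.60 CPM in compound KO, against 0.587 to 1.65 CPM in Normal. It rose by 1.20 ± 0.33 (SE, edgeR adjusted p = 0.0373) and Nlrc5 by 1.15 (adjusted p = 0.0303). The row _enh.5560, between the peptide transporter gene Tap1 and the immunoproteasome gene Psmb8, and _enh.5569, before H2-D1, rose by 1.17 and 1.36 (edgeR adjusted p = 0.0334 and 0.0198). The gene rows did not pass the test, with 0.27 for Tap1 (adjusted p = 0.555), -0.33 for Psmb8 (adjusted p = 0.203) and 0.37 for H2-D1 (adjusted p = 0.479). The calls of _enh.2894, _enh.5560 and _enh.5569 were lost in 12, 10 and 4 of 17 omissions (adjusted p up to 0.137, 0.113 and 0.0628), the 4 being those of the AML libraries other than compound KO replicate 1.

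The row beside Spi1 was looked at because the URE is an enhancer of that gene. The single kept row whose bracket touches the Spi1 row is _enh.622 on chromosome 2, between Spi1 (91082390 to 91115756, GRCm38) and Mybpc3. Whether it covers the URE cannot be read from the table. It measured 7.99, 11 and 5.89 CPM in WT, 5.17, 7.72 and 7.12 CPM in URE het, 12.5, 10.4 and 10.5 CPM in Tet2 het, and 5.73, 8.53 and 4.91 CPM in Tet2 KO. In AML it measured 2.94 and 6.08 CPM in compound het and 11.2, 1.17 and 1.78 CPM in compound KO. The 3 AML libraries that stood apart lay below all Normal ones and compound KO replicate 1 among the highest. Spi1 itself showed the same libraries low, at 21.7, 7.82 and 12.2 CPM, against 45.2 to 137 CPM in Normal. Compound het replicate 2, at 34.9 CPM, also lay below all Normal libraries, and compound KO replicate 1 stood at 98.9 CPM. Among Normal libraries Spi1 ran from 91.0 to 137 CPM for title numbers 1 to 7 and from 45.2 to 62.9 CPM for 8 to 17. Compound KO replicate 1 has title number 6. The change of _enh.622 was -0.78 ± 0.41 on the log2 scale (SE, edgeR adjusted p = 0.288) and that of Spi1 -1.25 ± 0.49 (adjusted p = 0.145). Without compound KO replicate 1 the value of _enh.622 was -1.61 (edgeR adjusted p = 0.00115), and by limma voom it was -1.51 (adjusted p = 0.0191). Within title numbers 8 to 17, which also leave out that library, it was -1.31. Over 17 omissions of a library the value ran from -1.61 to -0.57, and no other omission brought a call. Of 9 other settings 7 left the row uncalled. In URE het against WT the row differed by -0.31 (edgeR adjusted p = 0.998). Tet2 RNA was 80.2 to 86.2 CPM in Tet2 KO and 108 to 133 CPM in WT, but 112, 112 and 176 CPM in compound KO, which carries the same Tet2 genotype as Tet2 KO. It was 92.6 to 114 CPM in Tet2 het and 235 and 156 CPM in compound het. The whole-gene level of Tet2 thus did not follow the labelled genotype in the compound mutants, and it does not show whether the deleted part is missing.

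The changes of enhancer rows and of the gene rows before them were correlated. For the 1752 rows whose preceding gene was tested, the AML minus Normal log2 changes of row and gene correlated with Pearson's r of 0.74 and Spearman's rho of 0.60. With the gene row after, r was 0.40 (n = 1432). For the 956 rows with a bracket inside a tested gene, r with that gene was 0.75. Without such a gene, r was 0.73 with the gene before (n = 1009) and 0.28 with the gene after (n = 856). Adjacent enhancer rows with no row between them had an r of 0.84 (n = 1106). These correlations run across sites in the same 17 libraries, share the library scaling and may share reads, and sites are not replicates. Of the 70 called rows whose preceding gene was tested, 28 followed a gene called in the same direction, 0 one called in the opposite direction and 42 one that was not called. Over all tested gene rows 9.1% were called in either direction, and the difference was not tested.

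**Figure D4:**
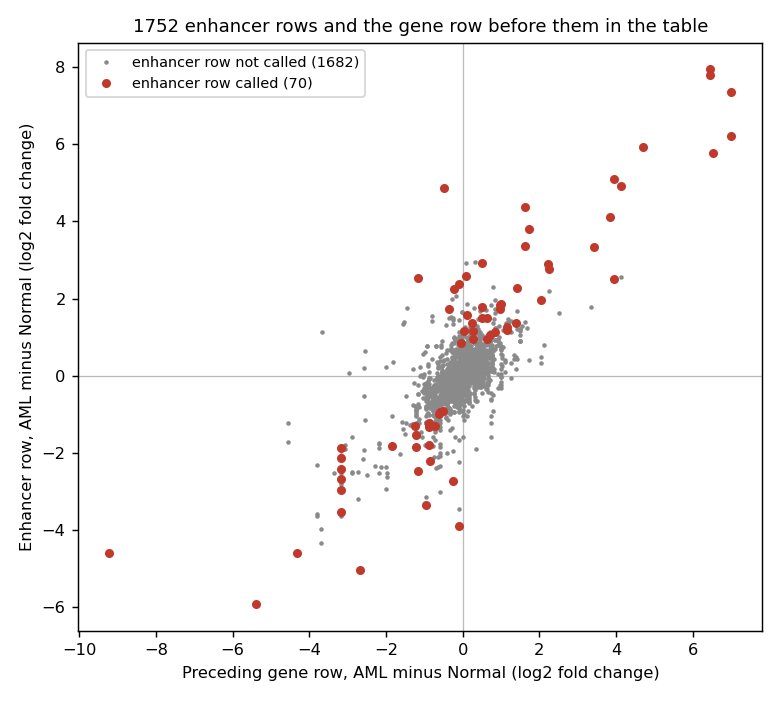
AML minus Normal log2 fold change of 1752 enhancer rows (vertical) against that of the gene row before each in the table (horizontal), with called enhancer rows marked. The cloud runs along the diagonal, with a Pearson's r of 0.74.

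Enhancer rows showed a low stretch on chromosome 2 in 3 AML libraries. The interval from 60 to 160 Mb, which includes Spi1 and _enh.622, was taken from earlier results of these data and holds 90 of the rows, 41 of them at 1 CPM or more. Each row was set to a percentage of its Normal mean, and the median inside the interval was divided by the median of 1095 rows elsewhere. The ratio was 38.6% in compound het replicate 1 and 53.5% and 53.0% in compound KO replicates 2 and 3. In the same libraries the lowest ratio of any other autosome was 82.0%, 85.4% and 81.1%. Compound KO replicate 1 stood at 114% and compound het replicate 2 at 112%, and Normal libraries ran from 89.2% to 123%. Of the 90 rows in the interval 2 were called, both lower, where 1.64% of the enhancer rows and 2.23% of all rows were called lower.

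**Figure D5:**
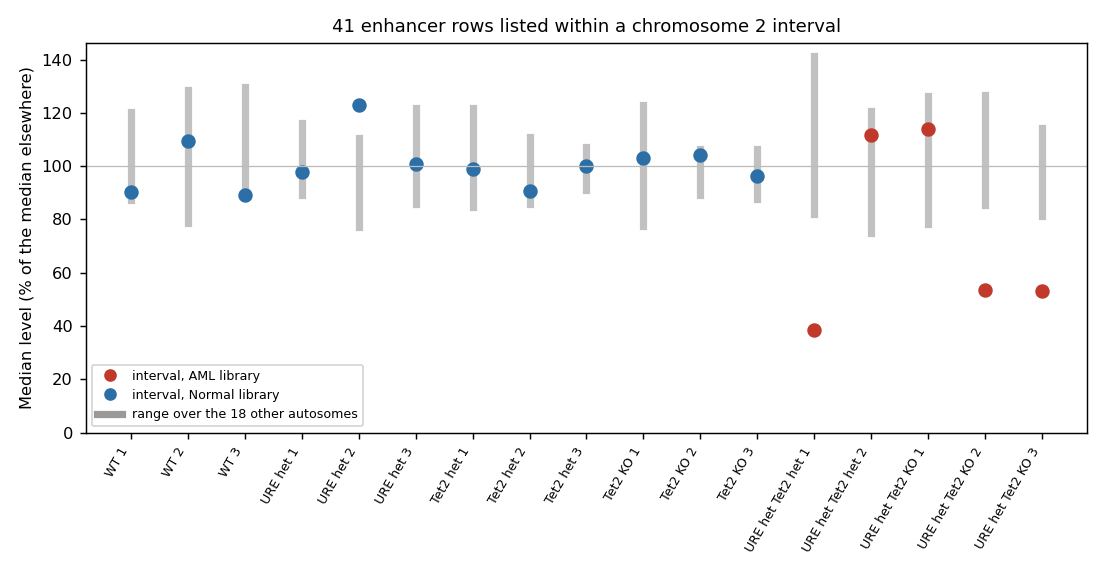
Median level of 41 enhancer rows on chromosome 2 (60 to 160 Mb by their neighbours), as a percentage of the median of 1095 rows elsewhere, per library, beside the range of the other autosomes. The 3 low libraries are compound het replicate 1 (38.6%) and compound KO replicates 2 (53.5%) and 3 (53.0%).

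No enhancer row changed in a single mutant against WT by the edgeR test, where 0% of all rows were called in each of the 3 comparisons. At an unadjusted p under 0.05 there were 89 rows for URE het (3.62% of all rows passed), 154 for Tet2 het (4.42% of all rows) and 82 for Tet2 KO (3.1% of all rows). DESeq2 called 0, 0 and 3 rows and limma voom 0, 0 and 8. Over all 40587 rows DESeq2 called 5, 1 and 20 and limma voom 0, 0 and 64. In Tet2 KO, DESeq2 called _enh.553 (-3.61, adjusted p = 0.00658), _enh.1795 (-5.72, adjusted p = 0.0119) and _enh.4267 (-3.28, adjusted p = 0.0443), and limma voom called these 3 and _enh.1796, _enh.4266, _enh.4268, _enh.4269 and _enh.4270, all lower. These are the 2 neighbourhoods of Gm8091 and of Gli3 to Inhba and 1 further row. In edgeR _enh.1795 differed by -5.73 ± 1.12 (SE) with an adjusted p of 1, and _enh.4266 by -2.15 ± 0.54 (SE) with an adjusted p of 1. The medians over the 2322 rows were 0.18 for URE het, 0.54 for Tet2 het and -0.06 for Tet2 KO on the log2 scale, with 1838 rows above 0 for Tet2 het, while those of gene rows were -0.01, 0.00 and 0.00. With scaling to the enhancer rows that carry a gene identifier the medians were 0.00, 0.07 and 0.01. The title ranges were not balanced here: WT replicates 1 and 2 were numbered 1 to 7, but only replicate 1 of each single mutant. Among Normal libraries the enhancer rows were a median of 0.47 higher in the later range. With a term for title range the medians were 0.06, 0.39 and -0.20.

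The number of rows called in compound mutants against their single-mutant controls depended on the tool. For compound KO against Tet2 KO and against URE het, edgeR called 1 and 3, DESeq2 45 and 59, limma voom 219 and 140, and edgeR without the count rule 40 and 38. Over all 40587 rows edgeR called 167 and 66, DESeq2 1551 and 1392, and limma voom 6331 and 3941. Without the count rule edgeR called 1125 and 910 of 72425 rows. In compound KO against Tet2 KO, 1 row fell and 0 rose, where 0.411% of all rows were called, 0.168% higher and 0.244% lower (edgeR, adjusted p under 0.05). That row was _enh.1398, at 5.38, 4.02 and 2.41 CPM in Tet2 KO and 0.806, 0.917 and 1.06 CPM in compound KO. The groups did not overlap, and the log2 change was -2.08 ± 0.43 (SE, edgeR adjusted p = 0.0438). The call was lost in 5 of 6 omissions, without any Tet2 KO library (replicates 1, 2 and 3: 0.157, 0.146 and 0.104) and without compound KO replicates 2 (0.18) and 3 (0.144).

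In compound KO against URE het, 3 rows fell and 0 rose, where 0.163% of all rows were called, 0.0591% higher and 0.103% lower. They were _enh.1398 (-2.52 ± 0.43, SE, edgeR adjusted p = 0.0347), _enh.1795 (-8.41 ± 1.42, SE, edgeR adjusted p = 0.0347) and _enh.1796 (-5.93, edgeR adjusted p = 0.0353). URE het libraries measured 5.90, 4.60 and 5.53 CPM of _enh.1398. The call of _enh.1398 was lost without URE het replicate 1, 2 or 3 (adjusted p = 0.113, 0.0891 and 0.0854) and without compound KO replicate 2 or 3 (0.174 and 0.123). That of _enh.1795 was lost without URE het replicate 1 or 2 (0.113 and 0.0844) and without compound KO replicate 2 or 3 (0.174 and 0.13). Both comparisons share the 3 compound KO libraries. Without compound KO replicate 1, which stood nearest to Normal, the counts were 60 against Tet2 KO and 82 against URE het. Of all rows 2054 and 2189 were called in these fits. Against Tet2 KO the count was 0 on leaving out any other library of the comparison. Against URE het it was 0 without URE het replicate 1 or 2 or compound KO replicate 2 or 3, and 1 without URE het replicate 3. Within title numbers 8 to 17, which leave out compound KO replicate 1, the counts were 183 and 232.

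In compound het against Tet2 het no row was called by edgeR (0% of all rows). At an unadjusted p under 0.05 in edgeR there were 134 enhancer rows, as were 9.32% of all rows. DESeq2 called 17 and limma voom 0, where they called 431 and 0 of all rows. The compound mutants with 0 and with 1 Tet2 copy did not differ in any enhancer row by edgeR (0.00493% of all rows called). There were 222 enhancer rows at an unadjusted p under 0.05 in edgeR, as were 10.9% of all rows. DESeq2 called 11 and limma voom 0, where they called 378 and 0 of all rows. With compound het reduced to 1 library, its spread was taken from the other groups. In such fits, without compound het replicate 1 there were 30 calls between the compound mutants, without compound het replicate 2 there were 2, and within title numbers 8 to 17 there were 215. Against Tet2 het there were 29 without compound het replicate 2. Between the compound mutants _enh.1398 differed by -2.35 ± 0.46 (SE, edgeR adjusted p = 0.186). The median of the 2322 rows was -0.58 and that of gene rows -0.09, and scaling to the enhancer rows with a gene identifier brought the former to -0.05. A test of whether the effect of the URE deletion differed between the Tet2 backgrounds called 0 rows (0% of all rows, 46 enhancer rows at an unadjusted p under 0.05, as were 3.34% of all rows).

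Genes of the enhancer machinery were compared in AML against Normal, where 1123 of 19337 genes rose and 636 fell. Of 23 blood factors that bind enhancers, 2 rose, Cebpa by 1.70 ± 0.35 (SE, edgeR adjusted p = 0.00885) and Gfi1 by 1.31 ± 0.20 (SE, edgeR adjusted p = 0.00116), which encode a granulocyte factor and a repressor of the same lineage. Also 2 fell, the B cell factor gene Ebf1 with -5.12 ± 0.80 (SE, edgeR adjusted p = 0.00216) and Gfi1b, of erythroid and megakaryocyte cells, with -3.54 ± 0.64 (SE, edgeR adjusted p = 0.00411). The median of the list was -0.22, against 0.05 over all genes. Of 22 chromatin factors and coactivators, the Mediator gene Med12 rose by 0.45 and Tet2 by 0.55 (edgeR adjusted p = 0.0343 and 0.0349) and Tet1, a related dioxygenase gene, changed by -1.65 (adjusted p = 0.0189), with a list median of 0.10. None of 14 genes of the Integrator complex, which ends enhancer RNA transcription, and none of 19 tested genes of the nuclear exosome and its adaptors passed the test, with medians of 0.03 and 0.13.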

How the data were processed

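The deposited table held raw counts per row and library, made by the authors. Per the submitters' processing notes, STAR and the build GRCm38 were used, and for the counter, annotation, strand rule and source of the enhancer rows the sources used here give nothing. Library sizes and TMM factors came from the gene rows, and CPM refers to them. Rows with at least 10 counts in at least 3 columns were fitted together with edgeR 4.0.16 (quasi-likelihood F test, robust, R 4.3.3) as 6 group means over 17 libraries. AML minus Normal is the mean of the compound group means minus the mean of the Normal group means. Each genotype group on a side has the same weight, whatever its number of libraries. P-values were adjusted by Benjamini-Hochberg over 40587 rows at 0.05. The SE is the size of a log2 change over the square root of its F. The fit was checked on simulated data. Alternatives were other scaling, no filter or filterByExpr (minimum total 15), DESeq2 1.42.0, limma 3.58.1 (voom), title number ranges and leaving out each library. Scaling to enhancer rows with a gene identifier was added after the data were seen. Rows named by rule were the 3 with the highest mean count and, per comparison with a call, up to 2 rises and 2 falls whose mean log2 CPM was 0 or more. From each gene list up to 3 called genes were named by smallest p, with 1 more given for the factors. Other rows were named after their values were seen. The rows, lists and the chromosome 2 interval were chosen with earlier results of these data known. Replicate numbers follow the order of deposition and only name libraries. A called row without overlap is not reported here.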

Additional observations from a re-analysis of the deposited data

Results flagged for a closer look

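Of 47 sets of values checked, 11 had 1 library farther from the rest of its group than Dixon's criterion allows (0.71 of the range for 5 libraries). Chance gives about 1 in 20 for independent sets, a rate that does not apply here because most of these rows were chosen for their AML values and neighbouring rows are not independent. Only the 5 AML libraries were checked, because the Normal group was larger than the criterion was applied to. Compound het replicate 2 was highest for _enh.2064 (90.0 CPM, next 47.3), _enh.1795 (0.637 CPM, next 0.0848), _enh.5714 (0.659 CPM, next 0), _enh.5715 (0.574 CPM, next 0.0848) and _enh.5718 (0.892 CPM, next 0.0848). Compound het replicate 1 was highest for the neighbouring rows _enh.4577 (4.77 CPM, next 2.08), _enh.4578 (13.6 CPM, next 3.38), _enh.4579 (11.8 CPM, next 4.33) and _enh.4580 (9.57 CPM, next 3.02). Compound KO replicate 1 was highest for _enh.4269 (4.45 CPM, next 1.34). Compound KO replicate 3 was highest for _enh.2134, at 0.0302 CPM, and the other 4 libraries had 0 counts.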

How the results depend on the processing

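With no filter on low counts the called enhancer rows numbered 145 in AML against Normal, 1 for Tet2 het and 1 for Tet2 KO against WT, 40 and 38 for compound KO against Tet2 KO and against URE het, 11 for compound het against Tet2 het, and 12 between the compound mutants. In the same order DESeq2 gave 191, 0, 3, 45, 59, 17 and 11. limma voom gave 8 for Tet2 KO against WT, and 219 and 140 for compound KO against Tet2 KO and URE het. A term for title range gave 182, 9 and 12 for AML and those 2 comparisons. Title numbers 8 to 17 alone gave 193, 183 and 232 for them, 8 for URE het against WT, 8 for compound het against Tet2 het and 215 between the compound mutants; in these last 3 WT or compound het was 1 library, assumed to vary like the other groups. TMM over all rows gave 0 for compound KO against Tet2 KO, and the added scaling to enhancer rows with a gene identifier gave 0 and 1 for it and for compound KO against URE het. Leaving out 1 library moved the count from 18 to 204 in AML against Normal, 0 to 60 and 0 to 82 for compound KO against Tet2 KO and URE het, 0 to 29 for compound het against Tet2 het and 0 to 30 between the compound mutants. Both ends of the range for AML against Normal came from leaving out a compound het library, which left 1 library in that group. Calls over all rows moved as well. In AML against Normal they went from 2676 to 4671 with DESeq2, 2549 with limma voom and 4854 with the range term. The causes were not tested. The sign of _enh.3853 turned to 0.20 with limma voom, 0.046 with the range term and 0.57 in title numbers 8 to 17, and ran from -0.35 to 0.21 on leaving out 1 library; _enh.2064 ran from -0.18 to 0.42. No other named row reversed. Over the log2 changes of named rows, the other settings left 343 on their side of the threshold, lost 36 calls and added 5, and leaving out 1 library left 521, lost 160 and added 1. A minimum of 5 or 20 counts in place of 10 gave 2762 or 1901 rows. The median of 17 to 55 counts per row and library limits single rows. No paired analysis was possible because the labels number libraries in 1 running series and the replicate numbers only name them.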
